A study of Mus musculus with 6 samples.

Results

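The bone morphogenetic protein (BMP) response was followed here through 10 genes in embryoid bodies with spinal motor neurons. The genes were Id1, Id2, Id3 and Id4, the inhibitory Smad genes Smad6 and Smad7, the ligands Bmp4 and Bmp7, and the receptors Bmpr1a and Bmpr2. They were taken by name from a table of 19613 genes, and each name matched 1 row. The rule itself uses names alone, but the set was drawn up with earlier results of these data known. The 6 samples form 1 group. Each was a culture of embryoid bodies grown from the HBG3 mouse embryonic stem cell line, which carries a green fluorescent reporter driven by the motor neuron gene Hb9 (Mnx1). The cultures had been induced with retinoic acid and a hedgehog agonist and then kept for a day with blood fluid from B6CBA-Tg(HDexon1)62Gpb/3J mice. These mice carry exon 1 of the human huntingtin gene as a transgene, and the donors were male carriers aged 10 weeks, taken before symptoms. The fluid is named plasma in the sample labels and serum in the title and methods, and "serum" is used below. No arrays with control serum were analysed here, so the values give levels and their spread between arrays, not a response to the serum. All cultures came from 1 cell line, and the embryoid bodies hold other cells beside motor neurons.

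BMP ligands are secreted dimers that bring together type I receptors such as Bmpr1a and the type II receptor Bmpr2. The active type I receptor phosphorylates Smad1, Smad5 and Smad9, which join Smad4 and enter the nucleus. The Id genes are direct targets, and their products bind E proteins and so keep basic helix-loop-helix (bHLH) factors off DNA. Smad6 and Smad7 are also induced and act back on the receptors as inhibitors. In the developing spinal cord BMPs come from the roof plate and overlying ectoderm and pattern the dorsal side, whereas motor neurons form ventrally under hedgehog signals.

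The arrays are named by the replicate numbers in their titles, 2, 4, 5, 6, 7 and 8, which give no pairing or batch. Median intensity ran from 296 to 311 over the arrays, and Pearson's r between arrays, across all genes, from 0.991 to 0.997. Replicate 8 stood apart, with the lowest average r with the others (0.992), the lowest lower quartile of intensity (109 against 121 to 129) and the lowest median log2 intensity of olfactory receptor genes (5.44 against 5.49 to 5.61). Some values that rest on replicate 8 are therefore also given without it. All 7 matched motor neuron markers were above background, against 65.2% of all genes. They ran from Mnx1 at 8.48 ± 0.18 to Isl1 at 10.33 ± 0.12 (log2 intensity, SD, n = 6), so markers of the labelled cell type were detected.

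The sequences before the start sites are shown for 4 of the target genes, because Id4 with Smad6 and Id1 with Id2 were the pairs with the highest correlations over the arrays (not past adjustment), and Id3 varied most among members above background. They are the 250 bases before the annotated start, from RefSeq (GRCm38.p6), where 7 of the 10 members had an entry and Id1, Smad7 and Bmp7 did not. Id2 lies at chr12:25096093-25096342 on the minus strand, Id3 at chr4:136143572-136143821 on the plus strand, Id4 at chr13:48260866-48261115 on the plus strand and Smad6 at chr9:64022060-64022309 on the minus strand. Capitals mark the letters GGCGCC and CAGAC, the cores of the elements through which Smads are known to bind DNA, on either strand.
Id2: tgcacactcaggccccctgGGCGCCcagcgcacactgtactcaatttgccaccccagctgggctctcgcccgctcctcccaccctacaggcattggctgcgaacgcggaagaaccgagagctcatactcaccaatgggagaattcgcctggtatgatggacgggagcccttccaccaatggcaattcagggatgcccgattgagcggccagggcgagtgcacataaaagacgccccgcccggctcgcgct
Id3: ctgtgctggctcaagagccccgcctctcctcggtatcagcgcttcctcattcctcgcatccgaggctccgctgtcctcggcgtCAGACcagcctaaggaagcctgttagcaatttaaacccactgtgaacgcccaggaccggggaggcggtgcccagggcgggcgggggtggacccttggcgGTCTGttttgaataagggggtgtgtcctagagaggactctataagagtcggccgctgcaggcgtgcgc
Id4: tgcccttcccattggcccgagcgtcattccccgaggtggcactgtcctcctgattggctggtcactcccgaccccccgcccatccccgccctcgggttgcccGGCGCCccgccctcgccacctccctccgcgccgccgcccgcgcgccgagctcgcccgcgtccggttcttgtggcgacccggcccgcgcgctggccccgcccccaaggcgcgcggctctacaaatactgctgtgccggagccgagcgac
Smad6: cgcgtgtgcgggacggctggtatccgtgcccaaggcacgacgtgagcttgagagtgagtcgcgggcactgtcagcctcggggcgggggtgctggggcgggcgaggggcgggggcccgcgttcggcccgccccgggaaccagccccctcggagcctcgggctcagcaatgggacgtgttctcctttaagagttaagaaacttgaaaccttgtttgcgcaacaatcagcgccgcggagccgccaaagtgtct

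In these windows GGCGCC was found in Id2 (starting 231 bases before the start site) and Id4 (148 bases before it), and CAGAC at 2 places in Id3 (167 and 68 bases before it). The Smad6 window held neither, and no match overlapped another. The windows of Bmpr1a and Bmpr2, not shown, also held GGCGCC (198 and 105 bases before the start), and that of Bmp4 held neither. Over 32851 RefSeq promoter windows of the same length, 9.59% held GGCGCC and 42.2% held CAGAC, each on either strand. The windows of Id4 and Smad6 had GC contents of 75.6% and 66.8%, above 96.4% and 85.8% of all windows, and those of Id2 and Id3 had 62.8% each. Those of Bmpr1a and Bmpr2 had 78.8% and 64%, and the median over all windows was 52.4%. The shares over all windows are not matched for GC content, so no enrichment of these letters is read from them. These matches describe the letters in a short window, and regulatory elements farther away were not examined.

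Of the 10 members, 9 had a mean above the background level, a log2 intensity of 7.47, which is the 95th percentile of the means of 1032 olfactory receptor genes. Of all genes measured, 65.2% were above it. All members but Bmp4 were above this level in each of the 6 arrays, and Bmp4 was above it in 1. With a stricter level, the 99th percentile at 8.33, Smad6 was below as well and 8 members were above. Intensities depend on the probes of each gene, so each level is read against background, and where the highest and lowest genes of a list are named the order is one of intensity, not of transcript amount. In these mixed cultures fewer cells of a type and less RNA per cell cannot be told apart.

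**Figure D1:**
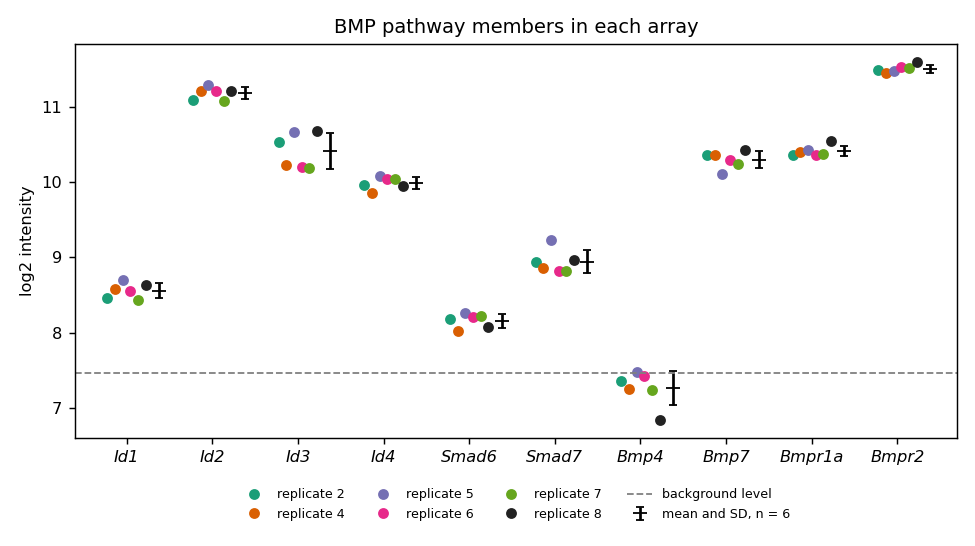
Log2 intensity of the 10 members (horizontal axis) in each of the 6 arrays, with 1 coloured point per array, the mean and SD beside them and the background level of 7.47 as a dashed line. Only Bmp4 lies around or below background, and Id3 shows the widest separation of arrays among members above it.

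The Id genes were all well above background. Id1, which is induced by BMP in many cell types, had log2 intensities of 8.46, 8.58, 8.70, 8.55, 8.44 and 8.63 in replicates 2, 4, 5, 6, 7 and 8 (mean 8.56 ± 0.10, SD, n = 6). Replicates 2 and 7 were lowest and replicate 5 highest, a span of 1.20-fold. Id2, which is also used by neural progenitors and many differentiating cells, had 11.09, 11.21, 11.29, 11.22, 11.08 and 11.21 in the same order (11.18 ± 0.083). The same replicates, 2 and 7 at the low end and 5 at the high end, marked its range of 1.16-fold. Id4, which is found in neural stem cells and delays their differentiation, had 9.97, 9.85, 10.09, 10.05, 10.04 and 9.95 (9.99 ± 0.084). Its order was different, with replicate 4 lowest and replicates 5, 6 and 7 highest.

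Id3, a close relative of Id1 that is often induced with it, varied far more. Its log2 intensities were 10.53, 10.23, 10.67, 10.20, 10.19 and 10.68 in replicates 2, 4, 5, 6, 7 and 8 (10.42 ± 0.24, SD, n = 6). Replicates 2, 5 and 8 lay between 10.53 and 10.68 and replicates 4, 6 and 7 between 10.19 and 10.23, with no array between. This was a span of 1.41-fold, against a median of 1.15-fold over all genes above background. With genes above background divided by level into 4 bins of like size, the SD of Id3 exceeded that of 99.3% of the genes in its bin, whose median SD was 0.058. Without replicate 8 the SD was 0.22, and without replicate 5 it was 0.23. The labels give no batch that could be set against these arrays, and the part of cell content was not tested. The mean of the 7 motor neuron markers was 9.29, 9.33 and 9.41 in replicates 2, 5 and 8. It was 9.19, 9.25 and 9.31 in replicates 4, 6 and 7, so these sets overlapped, with replicate 7 above replicate 2. Mnx1 was also higher in each array with high Id3, at 8.43, 8.67 and 8.73 against 8.41, 8.32 and 8.31 in the same order. Its sets nearly met, at 8.43 in replicate 2 and 8.41 in replicate 4, with an SD of 0.18. Chat was ordered likewise, with 9.54, 9.41 and 9.54 against 9.37, 9.34 and 9.33 (SD 0.097). Isl1, Isl2, Lhx3, Slc5a7 and Prph were not, and all 7 were compared after their values were seen. How many of all genes are ordered in this way was not counted, so no link to Id3 is read from these markers.

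Among the inhibitory Smads, Smad7, which blocks receptors and recruits ubiquitin ligases to them, had 8.95, 8.86, 9.23, 8.83, 8.82 and 8.97 in replicates 2, 4, 5, 6, 7 and 8 (8.94 ± 0.15, SD, n = 6). Replicate 5 was above all others, and without it the SD was 0.071. Smad6, which acts mainly on BMP signals, had 8.18, 8.02, 8.26, 8.21, 8.22 and 8.08 (8.16 ± 0.091). Replicates 4 and 8 were lowest, and the span was 1.18-fold. The SD of Smad7 exceeded that of 89.6% of genes in its bin and that of Smad6 exceeded 34.3% in its own.

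The ligands differed in whether they were detected. Bmp7, a ligand of neural tube and kidney among other tissues, had 10.36, 10.37, 10.11, 10.29, 10.24 and 10.43 in replicates 2, 4, 5, 6, 7 and 8 (10.30 ± 0.11, SD, n = 6). Replicate 5 was lowest, and without it the SD was 0.070. Bmp4, a ligand of the dorsal ectoderm and of early mesoderm, had 7.36, 7.25, 7.49, 7.42, 7.24 and 6.84 (7.27 ± 0.23). Its mean was not above background, replicate 5 alone passed that level, and replicate 8 was lowest. Without replicate 8 the SD of Bmp4 was 0.11. The differences between arrays of Bmp4 thus lay at levels shared with olfactory receptor genes.

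Both receptors were far above background and varied least. Bmpr2, the type II receptor, had 11.49, 11.44, 11.48, 11.52, 11.52 and 11.60 in replicates 2, 4, 5, 6, 7 and 8 (11.51 ± 0.052, SD, n = 6). Bmpr1a, a widely used type I receptor, had 10.36, 10.40, 10.43, 10.37, 10.37 and 10.55 (10.41 ± 0.071). Replicate 8 was highest for both, and without it the SDs were 0.031 for Bmpr2 and 0.030 for Bmpr1a. From lowest to highest array the span was 1.11-fold for Bmpr2 and 1.14-fold for Bmpr1a.

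Of the 9 members above background, 7 had an SD above the median of their bin, the exceptions being Smad6 and Bmpr2. The median SD of the 9 was 0.091, against 0.076 over all genes above background. The median for the 65 other genes above background on the BMP pathway list, which also holds activin and TGF-beta genes, was 0.093.

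**Figure D2:**
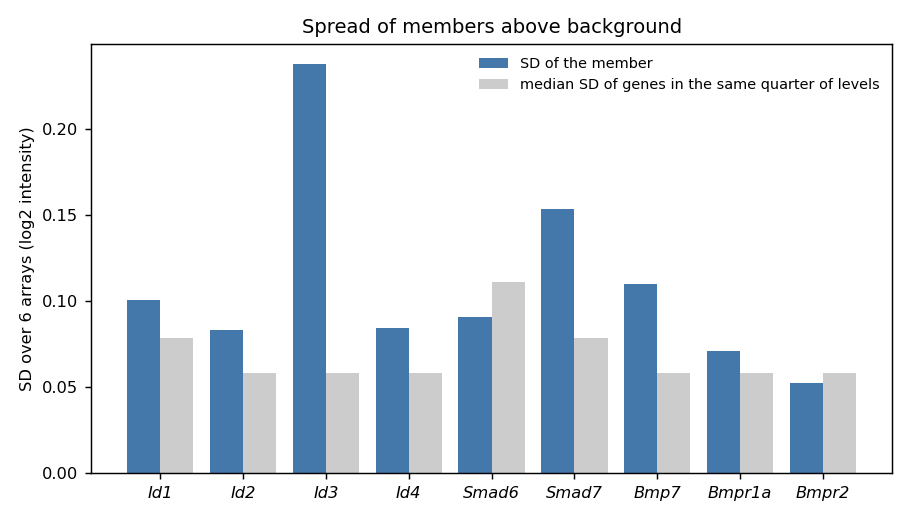
SD over the 6 arrays (vertical axis, log2 intensity) of the 9 members above background, in blue, beside the median SD of all genes in the same bin of levels, in grey. Id3 at 0.24 stands over a bin median of 0.058, whereas Smad6 and Bmpr2 lie under theirs.

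The deviations from the mean were then compared between members. Replicate 5 was the highest array for Id1, Id2, Id4, Smad6, Smad7 and Bmp4 and the lowest for Bmp7. Replicate 8 was the highest for Id3, Bmp7, Bmpr1a and Bmpr2 and the lowest for Bmp4. Covariation was measured by Pearson's r over the 6 arrays for all 45 pairs of members, with an exact permutation test over the 720 pairings of arrays.

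**Figure D3:**
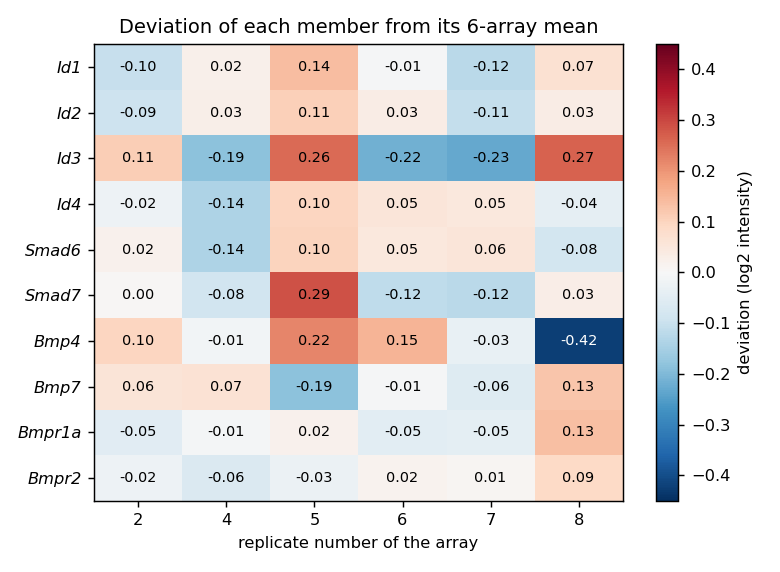
Deviation of each member (rows) from its mean over the 6 arrays, in log2 intensity, for each array (columns), red above and blue below the mean. Id1 and Id2 have a like order of arrays, Id4 and Smad6 another, and the darkest cells are Bmp4 in replicate 8 (-0.42) and Smad7 in replicate 5 (0.29).

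Of the 45 pairs, 3 had an exact p under 0.05, or 6.67%, and 0 passed after Benjamini-Hochberg adjustment over the pairs. When each member was paired with every gene above background, 8.12% of 127921 pairs had such a p. The share among members was thus near the background, and covariation of the members as a set was not shown. One pair alone cannot reach an adjusted p under 0.0625 with 6 arrays. The 6 pairs of Id genes had a median r of 0.26, against -0.00055 for all pairs of genes above background, and without replicate 5 that median was -0.072. Id4 had r = 0.096 with Id1 and 0.13 with Id2.

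The pair with the smallest exact permutation p was Id4 and Smad6, at r = 0.96 (p = 0.00278, adjusted p = 0.125). Spearman's rho was 0.94 (exact p = 0.0167, adjusted p = 0.25), and without replicates 4 and 5, which lay farthest from the Id4 median, r was 0.84. Replicates 5, 6 and 7 were highest and replicates 4 and 8 lowest for both genes. With each array left out in turn, r stayed between 0.90 and 0.98. Smad6 ranked 14 of 12792 genes above background by its r with Id4. The mean of Smad6 (8.16) lay below the stricter background level of 8.33, while that of Id4 (9.99) lay above it. The part of background signal in this relation was not tested.

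Id1 and Id2 followed, at r = 0.96 (exact p = 0.00694, adjusted p = 0.146). Their rho was 0.83 (exact p = 0.0583, adjusted p = 0.438), r without replicates 5 and 7 was 0.90, and with each array left out it stayed between 0.94 and 0.99. Id2 ranked 20 of 12792 genes by its r with Id1, and Id1 ranked 10 by its r with Id2.

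The remaining pair counted was Id3 and Smad7. Because the arrays fell into separate sets for Id3, no pooled correlation or p is given, and with 3 arrays a set the relation within a set cannot be tested. Smad7 was between 8.95 and 9.23 in the arrays with high Id3 and between 8.82 and 8.86 in the others.

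**Figure D4:**
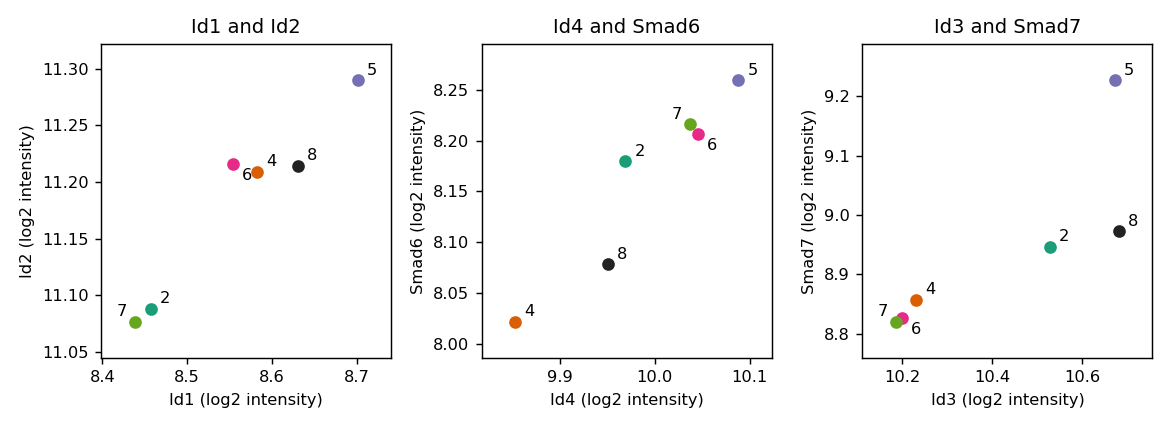
Log2 intensities of Id1 and Id2 (left), Id4 and Smad6 (middle) and Id3 and Smad7 (right), with each point an array labelled by its replicate number. In the first 2 panels both genes rise together (r = 0.96 each), whereas replicates 4, 6 and 7 sit apart from replicates 2, 5 and 8 along the Id3 axis.

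Other pairs did not reach an exact p of 0.05 by Pearson's r. Bmp7 ran opposite to Smad6 (r = -0.80, exact p = 0.0542, adjusted p = 0.55) and to Id4 (r = -0.78, exact p = 0.0611, adjusted p = 0.55). By Spearman's rho these pairs were at -0.94 (exact p = 0.0167, adjusted p = 0.25) and -0.89 (exact p = 0.0333, adjusted p = 0.375). With the 2 arrays most distant from the target gene's own median left out, r was -0.996 for Smad6 and -0.92 for Id4, and with those most distant from the Bmp7 median left out it was -0.72 and -0.81. After median centring r was -0.67 (exact p = 0.144) and -0.58 (exact p = 0.236). Without replicate 8 it was -0.74 for Smad6 and -0.81 for Id4. Between the receptors r was 0.66 (exact p = 0.197, adjusted p = 0.634), with rho at 0.086 (exact p = 0.919, adjusted p = 1). Without replicates 5 and 8 it was -0.86, and without replicate 8 alone -0.61, so the positive value rests on replicate 8. Between Smad6 and Smad7, the 2 inhibitors, r was 0.36 and turned to -0.35 without replicate 5.

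Among all genes above background, those most like each member were found by the highest r over the 6 arrays. For Id1 they were the histone gene Hist1h3h (r = 0.993), Shroom2 (r = 0.987) and Irf2bp1 (r = 0.984). The closest gene was Tnrc18 for Id2 (r = 0.986), Chst5 for Id4 (r = 0.995), Cd209g for Smad6 (r = 0.997), Pvrl2 for Smad7 (r = 0.992), Hpn for Bmp4 (r = 0.997), Ppip5k2 for Bmp7 (r = 0.998), Ttll5 for Bmpr1a (r = 0.995) and Nras for Bmpr2 (r = 0.997). For Id3 it was Tbc1d1, which divides the arrays as Id3 does. Each is the highest of at least 12792 values from 6 arrays that share a cell line, and no value without replicate 8 is given for these genes. No gene passed an adjusted p of 0.05 with any member, while between 425 genes for Id2 and 1866 for Bmp4 had an unadjusted exact permutation p under 0.05.

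Members were next set against the average log2 intensity of Isl1, Lhx3, Mnx1 and Olig2, the last a gene of motor neuron progenitors, and against the median of olfactory receptor genes, a measure of the floor of each array. Isl1, Lhx3, Mnx1 and Olig2 are the genes by which the paper corrected its expression values for differences between batches of neurons. Of 20 relations, 3 had an exact p under 0.05 and 0 passed after adjustment. All 3 were with the 4-gene mean, which was lowest in replicate 7 (9.03) and highest in replicate 5 (9.23). Id1 had r = 0.93 (exact p = 0.00694, adjusted p = 0.139) with rho of 0.94 (exact p = 0.0167, adjusted p = 0.167), and r = 0.77 with the 2 most distant arrays left out. Id2 had r = 0.88 (exact p = 0.0292, adjusted p = 0.213) with rho of 0.94 (exact p = 0.0167, adjusted p = 0.167), and r = 0.87 without them. Smad7 had r = 0.82 (exact p = 0.0319, adjusted p = 0.213) with rho of 0.77 (exact p = 0.103, adjusted p = 0.438), and r = -0.25 without them, so its relation rests on those arrays. Against the mean of the 7 motor neuron markers, which leaves out Olig2, r was 0.25 for Id1 (exact p = 0.635), 0.061 for Id2 (exact p = 0.917) and 0.44 for Smad7 (exact p = 0.392). These relations thus depended on the choice of marker genes. Without replicate 7, 1 relation had an exact p under 0.05. Against the olfactory receptor median, r was 0.43 for Id4 (exact p = 0.411) and 0.48 for Smad6 (exact p = 0.333). With the 2 most distant arrays left out, r was 0.89 for both genes. For Bmpr2, which is far above background, r was -0.56 (exact p = 0.294) and became 0.96 without the most distant arrays.

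Genes of other cell types in which BMP signals are strong were at mixed levels. The share above background, against 65.2% of all genes, was 66.7% for roof plate and dorsal, 33.3% for endothelial and 55.6% for mesenchyme genes. It was 87.5% for radial glia, 33.3% for pluripotency and 62.5% for surface ectoderm genes. A share near or under that of all genes is not read as presence of a cell type. Of 12 roof plate and dorsal progenitor genes 8 were above background, led by the BMP family ligand Gdf7 at 9.88 ± 0.14, with Lmx1b at 9.10 ± 0.11, Zic1 at 8.21 ± 0.18 and Lmx1a at 7.92 ± 0.17 (log2 intensity, SD, n = 6). Msx2, a BMP target of the roof plate, was lowest at 6.05 ± 0.18. Of 9 endothelial genes 3 were above, Tie1 at 8.50 ± 0.15, Vwf at 8.12 ± 0.13 and Cdh5 at 7.72 ± 0.10, while Esam was at 7.37 ± 0.13 and Cldn5 lowest at 5.92 ± 0.14. Of 9 mesenchyme and smooth muscle genes 5 were above, with Dcn at 12.01 ± 0.058, Col1a1 at 8.64 ± 0.12, Col3a1 at 8.27 ± 0.15 and Col1a2 at 8.22 ± 0.099, and Lum lowest at 5.71 ± 0.19. Of 8 matched radial glia and astrocyte genes 7 were above, led by Fabp7 at 13.90 ± 0.053, Vim at 13.63 ± 0.018, Sox9 at 10.55 ± 0.029 and Nes at 9.69 ± 0.043, with Aqp4 lowest at 7.45 ± 0.21.

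Of 6 pluripotency genes 2 were above, Nanog at 8.94 ± 0.12 and Tdgf1 at 8.39 ± 0.12, with Zfp42 at 7.47 ± 0.16, Pou5f1 at 7.37 ± 0.13 and Dppa5a lowest at 7.11 ± 0.20 (log2 intensity, SD, n = 6). Of 8 surface ectoderm genes 5 were above, with Cdh1 at 9.20 ± 0.11, Krt8 at 8.78 ± 0.16, Krt14 at 8.23 ± 0.12 and Krt18 at 7.94 ± 0.098, and Tfap2a lowest at 6.50 ± 0.18. The mean of the list members above background had its lowest array at 7.97 and its highest at 8.31 for roof plate, and at 7.97 and 8.19 for endothelium. Replicate 8 was lowest in both, and also for the mesenchyme (8.91) and surface ectoderm (8.13) lists. It was not lowest for the motor neuron, radial glia and pluripotency lists. Replicate 8 also had the lowest median of olfactory receptor genes, and the part of the array floor in its low list means was not tested. The members were also set against the 7 marker list means, each over its genes above background alone, a step added after the values were seen. The pluripotency mean thus held only Nanog and Tdgf1, and the endothelial mean only Tie1, Vwf and Cdh5. Of 70 relations, 4 had an exact p under 0.05 and 0 passed after adjustment (smallest adjusted p = 0.452, exact permutation). Bmp4 had the smallest p, with the roof plate and dorsal list, at r = 0.91 (exact p = 0.0292) with rho of 0.66 (exact p = 0.175, adjusted p = 0.717), but r was 0.47 without replicate 8 and 0.12 with the 2 arrays most distant from the list's median left out. The others were Bmp4 with the endothelial list (r = 0.89, exact p = 0.0361), Bmpr1a with the same list (r = -0.90, exact p = 0.0375) and Id2 with the pluripotency list (r = 0.89, exact p = 0.0403), which without replicate 8 were at 0.50, -0.56 and 0.89. With the 2 most distant arrays left out they were at 0.086, -0.69 and 0.29. By Spearman's rho the smallest p was that of Bmp7 with the roof plate list, at -1 (exact p = 0.00278, adjusted p = 0.194), followed by Smad6 with that list at 0.94 and Bmp7 with the surface ectoderm list at -0.94 (exact p = 0.0167 and adjusted p = 0.389 for both).

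The rest of the pathway was read from a list of 84 genes. Of these, 80 had a row and 65, or 81.2%, were above background, against 65.2% of all genes. The list also holds genes of activin and TGF-beta signals, such as Inhbb, Tgfbr1, Smad2 and Smad3, so the share of 81.2% covers more than BMP genes. Other ligands (62.5%) and secreted antagonists (64.7%) were near the share of all genes, and the other groups were above it. Of 16 other ligands 10 were above, with Gdf11 at 10.25 ± 0.13, Gdf7 at 9.88 ± 0.14, Bmp3 at 9.59 ± 0.12 and Inhbb at 8.30 ± 0.13, and Bmp5 was lowest at 5.66 ± 0.087 (log2 intensity, SD, n = 6). Of 15 other receptors and co-receptors 14 were above. The co-receptor genes Rgma and Rgmb had 12.23 ± 0.090 and 10.58 ± 0.10. The type I receptor genes Tgfbr1, of TGF-beta signals, and Acvr1b, of activin signals, had 10.73 ± 0.087 and 10.11 ± 0.049, and Acvr1c was lowest at 6.38 ± 0.15. The BMP type I receptor genes Acvr1, at 9.46 ± 0.055, and Bmpr1b, at 8.30 ± 0.057, are named after their values were seen.

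Of the 6 Smads that carry signals, 5 were above background. The shared partner Smad4 had 11.07 ± 0.093, the BMP-regulated Smad5 and Smad1 had 10.84 ± 0.060 and 9.14 ± 0.056, Smad2 and Smad3, which carry activin and TGF-beta signals, had 10.22 ± 0.084 and 10.14 ± 0.026, and Smad9 was at 7.39 ± 0.068 (log2 intensity, SD, n = 6). Of 17 secreted antagonists and modulators 11 were above, with Fstl1 at 10.95 ± 0.045, Crim1 at 10.93 ± 0.032, Twsg1 at 10.002 ± 0.064 and Kcp at 8.74 ± 0.13, and Cer1 lowest at 6.76 ± 0.31. The ligand traps Nog, at 8.51 ± 0.042, and Chrd, at 8.14 ± 0.13, were above background as well and are named after their values were seen.

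All 13 matched intracellular regulators were above background, among them Fkbp1a at 11.35 ± 0.13, which holds type I receptors inactive, Zeb2 at 10.70 ± 0.075, a Smad-binding repressor, Fkbp8 at 10.62 ± 0.062 and the kinase Map3k7 at 10.59 ± 0.040 (log2 intensity, SD, n = 6). Tob2 was lowest at 8.41 ± 0.16. Of 14 other targets 13 were above, with Hey1 at 11.89 ± 0.075, Nkx2-5 at 9.51 ± 0.067, Gata2 at 9.44 ± 0.043 and Hes1 at 9.23 ± 0.083, and Msx2 was the exception. These genes also answer to other signals, such as Notch for Hey1 and Hes1.

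**Figure D5:**
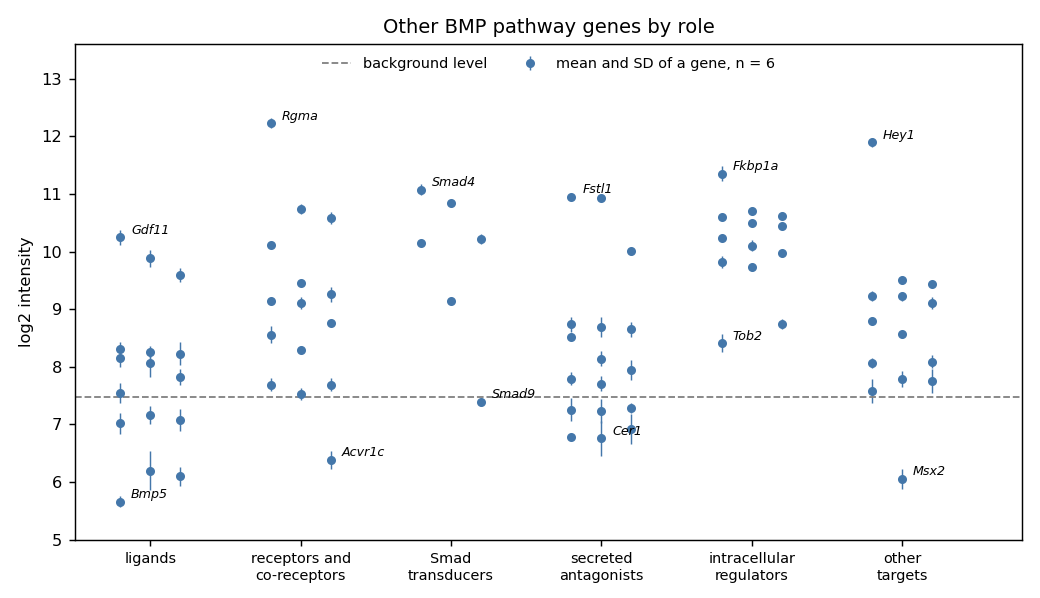
Mean log2 intensity and SD (n = 6) of the other genes of the BMP pathway list, with activin and TGF-beta genes among them, grouped by role along the horizontal axis. The highest and lowest gene of each group are named and the background level of 7.47 is dashed. Intracellular regulators lie wholly above background, whereas 6 of 16 ligands and 6 of 17 secreted antagonists lie below it.

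The partners that Id proteins bind were measured too. All 10 matched E protein and neural bHLH genes were above background, against 65.2% of all genes. Among them were the E protein gene Tcf12 at 11.88 ± 0.037, the neural bHLH gene Neurod4 at 11.29 ± 0.13 and the E protein gene Tcf3 at 10.19 ± 0.15 (log2 intensity, SD, n = 6). Neurog2, which drives motor neuron differentiation, was lowest at 7.89 ± 0.12. Id genes and their bHLH partners were thus detected in the same cultures, and whether they lay in the same cells cannot be told from these arrays.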

How the data were processed

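RNA from 6 cultures, which the labels place in a single group, was hybridized to mouse exon arrays from Affymetrix. The authors deposited linear intensities, with 1 value for each gene on each array, obtained by Robust Multi-array Averaging as the mean over the exons annotated to a gene. The arrays normalized together and the genome build are not given in the sources used here, and the table held 0 columns from other samples. A shared normalization can make arrays more alike, and a mean over exons hides differences between transcripts.

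Log2 of each intensity was taken, without a pseudocount. Names with an X before a digit (1065) were restored, and list genes were matched by symbol. Background was the 95th percentile of the means of 1032 olfactory receptor genes. Error is the SD over arrays, whose number limits the precision. The labels do not say whether the cultures or sera were independent, whereas the exact p-values treat the arrays as exchangeable. The p-values thus describe association over these arrays only. Correlations were tested two-sided by exact permutation over all 720 pairings, with Benjamini-Hochberg adjustment over 45 pairs, 20 array relations or 70 marker relations (Python 3.11.15, numpy 2.4.6), and the code was tested on simulated data. Alternatives were median centring, a loess correction (span 0.3), linear intensities, rank correlation, a stricter background and leaving out each array. Named in the text are all members, their closest genes by r, and the 4 highest and the lowest genes of each list, except 1 gene that is not reported here. The members and lists were chosen with earlier results of these data known.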

Additional observations from a re-analysis of the deposited data

Results flagged for a closer look

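Of the 10 members, 2 had 1 array far from the others, judged by the distance from the outermost array to the next one as a ratio to the full range of the 6. Smad7 was high in replicate 5, with a ratio of 0.625, which passed the critical value only beyond the third decimal. Bmpr1a was high in replicate 8, with a ratio of 0.631. Chance gives about 1 in 20 such sets, or 0.5 of 10, and among all genes above background 6.97% passed. Replicate 8 also had the lowest agreement with the other arrays, and its part in the value of Bmpr1a was not tested.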

How the results depend on the processing

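Under the 9 alternatives that bear on it (median centring, loess, leaving out each array and the stricter background), the count of members above background was 8 or 9, and the 8 came with the 99th percentile as background, where 45 pathway genes were above in place of 65. Pairs of members with an exact p under 0.05 numbered between 2 and 4, against 3. With 1 array left out, relations to the array measures with such a p numbered between 1 and 3, and the 1 came without replicate 7. The test over 5 arrays has 120 pairings and no p below 0.00833. The correlation of Id1 and Id4 was -0.0067 after the loess correction, against 0.096.

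Leaving out 1 array at a time turned the sign of several weak correlations. The range was -0.483 to 0.33 for Id1 and Id4, -0.361 to 0.43 for Id2 and Id4, -0.279 to 0.345 for Id3 and Id4, -0.351 to 0.547 for Smad6 and Smad7, and -0.607 to 0.774 for Bmpr1a and Bmpr2. The median over the Id pairs ran from -0.072 to 0.456. Leaving out Bmp4, chosen after seeing the data, gave 3 pairs. Id1 with Id2 and Id4 with Smad6 kept their sign and an exact p under 0.05 in all 9 fits with other scaling, scale or arrays. Rank correlation is not among these 9. By Spearman's rho Id4 with Smad6 was at 0.94 (exact p = 0.0167), but Id1 with Id2 was at 0.83 (exact p = 0.0583). Both pairs were picked as the highest in these same arrays, so the fits are not independent of that choice. The cause of these changes was not tested.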
